A study of Mus musculus with 12 samples.

Results

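The 9 genes described here are markers of the epicardium and of mesothelium: Wt1, Tbx18, Tcf21, Scx, Aldh1a1, Aldh1a2, Msln, Upk3b and Upk1b. They form a list of gene names, and all 9 were among the 21729 genes of the count table. Their transcripts were read in 12 single cultured cardiac progenitor cells (CPCs), which form 1 group. The cells were c-Kit+ and lineage-depleted cells of the non-myocyte fraction of hearts from FVB female mice aged 12 weeks, expanded as an adherent culture for 5 passages in serum with leukemia inhibitory factor, basic fibroblast growth factor and epidermal growth factor. The hearts of a pair of mice were pooled in each preparation, and which preparation a cell came from is not labelled. Single cells were then picked by hand under a microscope and each was made into 1 full-length polyA library without strand information, to ask how such cells are altered by culture. Uncultured cells and epicardial tissue were not analysed here, so every value describes the cultured cells alone.

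The epicardium is the mesothelial sheet on the outside of the heart. During development some of its cells undergo epithelial-mesenchymal transition, enter the heart wall and give rise to fibroblasts and mural cells of the coronary vessels. Wt1, Tbx18, Tcf21 and Scx encode transcription factors used to mark the epicardium or the cells that leave it, and Aldh1a1 and Aldh1a2 encode enzymes that make retinoic acid, a signal for which the epicardium is a known source. Msln, Upk3b and Upk1b encode surface proteins of mesothelial cells. None of these genes is exclusive to the epicardium: Tbx18 is also known from mural cells, Tcf21 from resident fibroblasts, Scx from tendon, and Wt1 from some vessels of the heart.

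The 12 cells held between 3453708 and 5690184 counts and between 10022 and 11950 detected genes each, with a mitochondrial share of 1.02 to 2.77%. A count of 0 allows up to 3 counts as a one-sided limit, which is 0.527 CPM (counts scaled to a common library total) in the deepest cell and 0.869 CPM in the shallowest. Both this limit and every interval given for a count reflect counting error alone, because reads without molecular identifiers are not independent molecules. Kit, the gene of the sorted receptor, was counted in 1 of 12 cells, at 21 counts in cell 10. That cell also carried 9810 CPM of endothelial markers, against at most 58.5 CPM in any other cell, with 8 of 10 such markers highest there and Vwf and Cldn5 at 0, and it was the least similar to the rest (median Pearson r with the others of 0.796 over 12366 genes), followed by cell 3 (0.846). Results that rest on cell 10 are therefore given with and without it. The labels name no animal or culture for a cell, so the cells count as 1 sample, spreads describe these 12 cells, and no test was made.

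As a group the 9 genes were detected about as often as any gene of the table, and the members differed widely. Of the 9 genes, 8 had a count in at least 1 cell, where 66.6% of all genes in the table did, and Upk3b had none. Tbx18 and Aldh1a1 were counted in all 12 cells, as were 35.3% of all genes. Wt1 and Tcf21 were counted in 2 cells each, and 9.65% of all genes were counted in 1 or 2 cells. Scx was counted in 8 cells, Aldh1a2 and Upk1b in 7 cells each and Msln in 4 cells. Taking each gene in each cell as a value, 54 of 108 were above 0 (50%, exact 95% interval 40.2 to 59.8%), where 50.5% of such values were above 0 over all genes. At 10 CPM or more the number was 30 values (27.8%, against 35.9% over all genes), of which 11 belonged to Aldh1a1 and 10 to Tbx18. The median of the 9 gene medians was 2.39 CPM, against 0.298 CPM over all genes in the table.

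**Figure D1:**
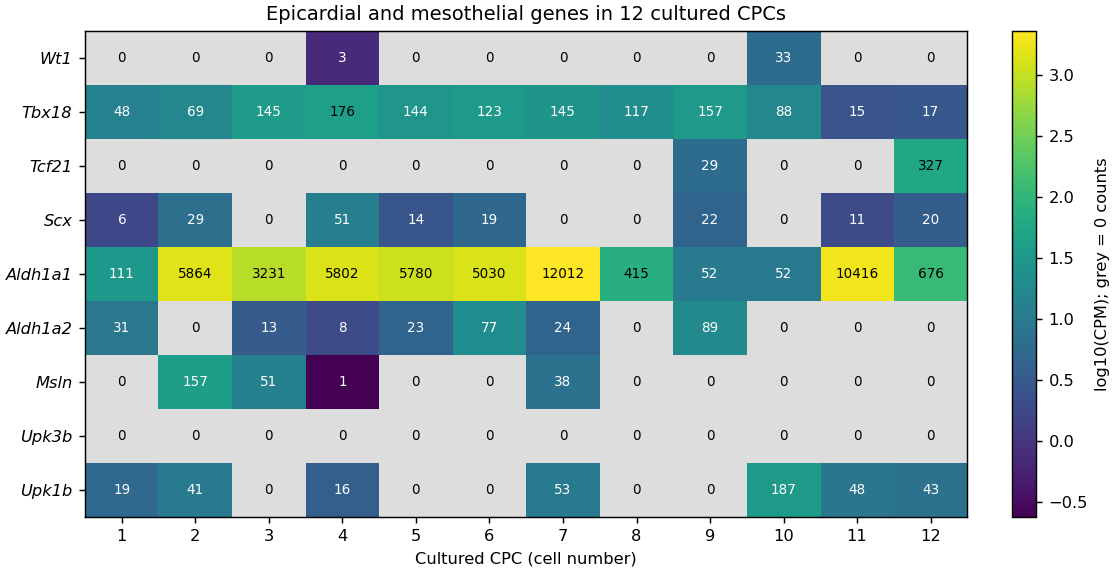
Read counts (numbers) and log10 CPM (colour) of the 9 genes (rows) in each of 12 cells (columns), with grey for 0 counts. Aldh1a1 and Tbx18 form the 2 unbroken rows, Wt1 and Tcf21 are found in 2 cells each, and the Upk3b row holds 0 in all cells.

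Sequence next to the start sites was read for the genes at both ends of this range. RefSeq promoter windows on the build GRCm38 were matched for 5 of the 9 genes, and Aldh1a1 has windows for 2 start sites. Each window below is the 250 bases before the start, 5′ to 3′ on the strand of the gene, with every CG pair in capitals. Tbx18 and Aldh1a1 are shown because they were counted in every cell, Aldh1a2 because it is the sister enzyme of Aldh1a1 with patchy counts, and Upk3b because it had none.
Tbx18 (chr9:87731261-87731510, minus strand): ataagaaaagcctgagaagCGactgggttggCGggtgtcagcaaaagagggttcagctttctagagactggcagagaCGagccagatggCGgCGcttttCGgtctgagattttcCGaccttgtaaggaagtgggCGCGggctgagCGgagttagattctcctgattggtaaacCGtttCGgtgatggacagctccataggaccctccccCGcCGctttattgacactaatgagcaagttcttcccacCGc
Aldh1a1, upstream start (chr19:20492333-20492582, plus strand): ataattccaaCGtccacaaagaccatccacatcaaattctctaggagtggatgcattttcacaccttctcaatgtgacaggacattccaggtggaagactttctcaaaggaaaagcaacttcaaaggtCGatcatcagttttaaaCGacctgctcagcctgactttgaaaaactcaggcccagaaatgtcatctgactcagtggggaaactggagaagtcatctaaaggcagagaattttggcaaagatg
Aldh1a1, downstream start (chr19:20601718-20601967, plus strand): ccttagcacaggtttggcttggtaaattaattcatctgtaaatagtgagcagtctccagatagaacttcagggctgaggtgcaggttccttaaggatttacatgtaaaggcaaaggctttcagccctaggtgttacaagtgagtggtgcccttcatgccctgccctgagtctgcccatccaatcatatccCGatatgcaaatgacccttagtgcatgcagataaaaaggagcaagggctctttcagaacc
Aldh1a2 (chr9:71215539-71215788, plus strand): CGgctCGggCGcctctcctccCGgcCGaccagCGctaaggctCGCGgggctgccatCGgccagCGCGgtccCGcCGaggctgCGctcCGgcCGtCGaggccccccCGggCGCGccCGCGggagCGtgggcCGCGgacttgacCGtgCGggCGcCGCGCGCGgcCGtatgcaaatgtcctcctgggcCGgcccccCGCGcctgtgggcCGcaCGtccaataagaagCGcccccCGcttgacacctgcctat
Upk3b (chr5:136038246-136038495, plus strand): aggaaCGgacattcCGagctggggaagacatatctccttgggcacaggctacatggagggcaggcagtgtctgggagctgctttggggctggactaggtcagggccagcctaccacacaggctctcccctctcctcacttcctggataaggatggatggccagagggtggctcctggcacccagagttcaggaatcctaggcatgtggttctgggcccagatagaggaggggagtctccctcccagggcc

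The Aldh1a2 window held 40 CG pairs and the Tbx18 window 15. The windows of Aldh1a1 held 3 and 1 and that of Upk3b held 2, while the Tcf21 window, which is not shown, held 5. Over all 32851 windows of this length the median was 6 CG pairs, with quartiles of 2 and 16. The most abundant gene and the gene without a count thus both had few CG pairs. The motif TATAAA was searched on both strands and was found in none of these 6 windows and in 12.4% of all windows. A match or its absence describes these letters only.

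Of the 4 transcription factors among the 9 genes, Tbx18 was the one counted in every cell. The gene encodes a T-box factor and lies on chromosome 9 (87702800 to 87731260, minus strand, mm10). Its level ran from 2.71 CPM in cell 11 (15 counts) to 42.2 CPM in cell 4 (176 counts), with a median of 24.4 CPM and a mean of 23.1 ± 12.9 CPM (SD, 12 cells). Cells 11 and 12, at 2.71 and 2.99 CPM, lay apart from the other 10, which held between 13.9 and 42.2 CPM. The spread was an ordinary one for its abundance: the coefficient of variation was 0.558, and the median over 6303 genes with a mean of 10 to 100 CPM was 0.568. A transcript on the opposite strand, D030062O11Rik, covers 970 exonic bases of Tbx18 (20.6% of its exons). Reads from that stretch cannot be assigned to a strand here.

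Wt1, the zinc finger factor most often used to identify epicardium, was almost absent. It lies on chromosome 2 (105126529 to 105173616, plus strand). Cell 10 held 33 counts, or 6.20 CPM (exact 95% Poisson interval 4.26 to 8.70 CPM), and cell 4 held 3 counts, or 0.719 CPM (0.148 to 2.10 CPM). The other 10 cells had none. Of the 36 Wt1 counts in the data, 33 thus came from the cell with endothelial transcripts, and at 5 counts or more Wt1 was detected in cell 10 alone. Without cell 10 the highest value was the 3 counts of cell 4, which equals the limit that a count of 0 allows. The part of endothelial transcripts in the Wt1 counts was not tested.

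Tcf21, a basic helix-loop-helix factor of epicardium-derived fibroblasts, was likewise restricted to 2 cells. It lies on chromosome 10 (22817281 to 22820174, minus strand). Cell 12 held 327 counts, or 57.5 CPM (51.4 to 64.0 CPM), and cell 9 held 29 counts, or 6.08 CPM (4.07 to 8.73 CPM). Cell 12 alone made up 90.4% of the CPM of this gene, and it was also the cell with the highest fibroblast marker sum, 6706 CPM against 3003 CPM in the next cell. Cell 9, in contrast, had the second lowest fibroblast sum, at 703 CPM, and the highest sum of 7 cell cycle genes, at 3725 CPM. The part of these measures in the Tcf21 counts was not tested.

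Scx, a factor of the same class known for tendon, was low and more widespread. It lies on chromosome 15 (76457452 to 76459458, plus strand). The highest values were 12.2 CPM in cell 4 and 7.16 CPM in cell 2, the median was 2.39 CPM, and cells 3, 7, 8 and 10 had no count. The gene sits inside Bop1, a ribosome biogenesis gene on the opposite strand, with which it shares no exonic base. Bop1 was counted in all 12 cells, and the 4 cells without Scx held 257, 568, 353 and 466 Bop1 counts. Of 6 tendon genes read beside it, Tnmd, Thbs4, Fmod and Kera had no counts. Tnc was counted in 9 cells at a median of 12.5 CPM, and Mkx, a tendon transcription factor, in 7 cells at a median of 1.25 CPM.

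Aldh1a1 dominated the set. The gene encodes a cytosolic retinaldehyde dehydrogenase and lies on chromosome 19 (20492715 to 20643465, plus strand). Its mean of 882 CPM was the 134th highest of the 21729 genes in the table, and its 49441 counts were 94.8% of all counts of the 9 genes. Cell 10 was lowest, at 9.76 CPM, and cell 7 highest, at 2284 CPM, a 234-fold range around a median of 1001 CPM. The values fell on either side of a wide step: cells 10, 9, 1, 8 and 12 held 9.76, 10.9, 32.1, 75.5 and 119 CPM, and the remaining 7 cells held 852 to 2284 CPM, so that no cell lay within a 7.17-fold interval between 119 and 852 CPM. Among the 2189 genes averaging 100 CPM or more, 92.7% had a smaller coefficient of variation than the 0.923 of Aldh1a1, and the median was 0.384. The close copy Aldh1a7 had at most 20 counts in any cell, and 1.01% of the 75-base stretches of Aldh1a1 transcripts also occur in Aldh1a7.

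Aldh1a2 encodes the retinaldehyde dehydrogenase that is the main embryonic source of retinoic acid in the epicardium. It lies on chromosome 9 (71215789 to 71296243, plus strand). It was highest in cell 6, at 20.5 CPM (77 counts), and in cell 9, at 18.7 CPM (89 counts). Cells 1, 3, 4, 5 and 7 held between 1.92 and 8.98 CPM, and cells 2, 8, 10, 11 and 12 had no count. Set per kb of exon, which allows levels of different genes to be compared, Aldh1a1 made up a median of 99.3% of the summed level of Aldh1a1, Aldh1a2 and Aldh1a3. Cell 9 was the exception, since Aldh1a2 there stood at 8.24 CPM per kb and Aldh1a1 at 2.21 CPM per kb, so that Aldh1a1 made up 21.1%. In cell 1 its share was 59.0%. In every other cell it was at least 95.9%. Aldh1a3, the third enzyme of this family, was highest in cell 5, at 17.3 CPM, and had a count in 6 cells.

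**Figure D2:**
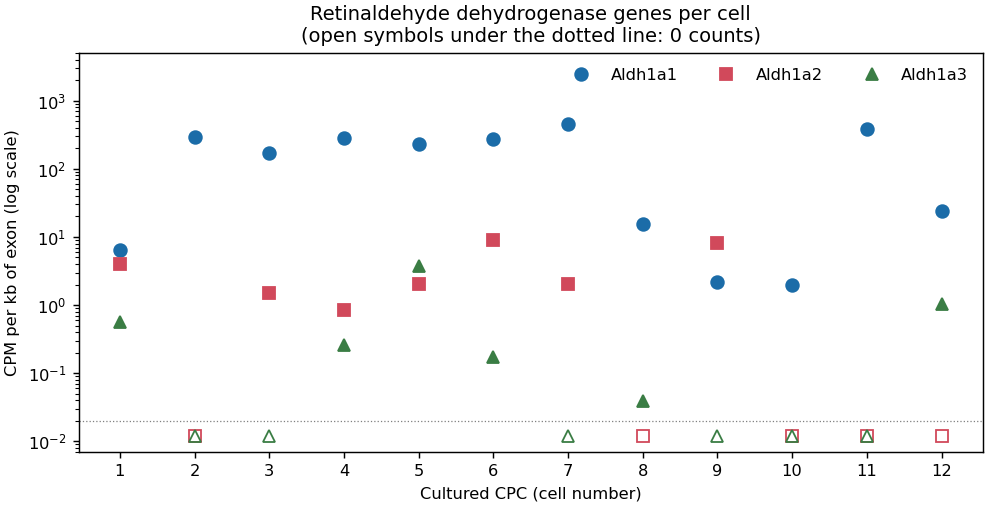
Level of Aldh1a1, Aldh1a2 and Aldh1a3 in CPM per kb of exon (log scale) in each of 12 cells, with open symbols for 0 counts. Aldh1a1 is the highest of the 3 genes in 11 cells, and Aldh1a2 lies above it in cell 9.

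The surface genes of mesothelium were sparse. Msln encodes mesothelin, a membrane-anchored glycoprotein that binds the mucin Muc16, and lies on chromosome 17 (25748613 to 25754378, minus strand). Cell 2 held 157 counts, or 38.8 CPM (32.9 to 45.3 CPM), cell 3 held 13.4 CPM, cell 7 held 7.23 CPM and cell 4 held a single count. These 4 cells were all among the 7 with the higher Aldh1a1 levels. The other 8 cells had no Msln count. Muc16 had no counts, and its relative Mslnl reached at most 5.5 CPM.

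Upk1b and Upk3b encode uroplakins, proteins of the urothelial surface that are also made by mesothelial cells. Upk1b lies on chromosome 16 (38773184 to 38800328, minus strand) and was counted in 7 cells, with a median over 12 cells of 4.67 CPM. Cell 10 held 187 counts, or 35.1 CPM (30.3 to 40.5 CPM), and the next cell, cell 2, held 10.1 CPM. Cells 1, 4, 7, 11 and 12 lay between 3.83 and 10.1 CPM, so Upk1b remained in 6 of 11 cells when cell 10 was left out. Upk3b, on chromosome 5 (136038496 to 136046487, plus strand), had 0 of 56346231 counts, which allows a level of up to 0.0532 CPM over all cells together. Upk2 and Upk3a had no counts either, while Upk1a and Upk3bl reached at most 1.16 and 1.98 CPM.

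When the genes were ordered by mean level per kb of exon, Aldh1a1 came first at 179 ± 165 CPM per kb (SD, 12 cells) and Tbx18 second at 4.89 ± 2.73. Aldh1a1 was the higher of these in 10 cells, the exceptions being cells 9 and 10. Upk1b (3.23 ± 4.72), Aldh1a2 (2.30 ± 3.20), Tcf21 (2.25 ± 7.03), Msln (1.62 ± 3.73) and Scx (1.62 ± 1.82) followed. From Tbx18 downwards, each gene differed from its neighbour in the order by less than the spread over cells. Tbx18 lay above Upk1b in 8 cells and below it in 4. Wt1 was lower, at 0.0930 ± 0.288 CPM per kb, and was counted in 2 cells where Scx was counted in 8. Leaving out each cell in turn, an alternative chosen after seeing the data, moved 4 of these means by more than 1.5 times. Without cell 10 the mean of Upk1b was 1.99 CPM per kb, below Aldh1a2 at 2.51 and Tcf21 at 2.46, and that of Wt1 was 0.011. Without cell 12 the mean of Tcf21 was 0.24 CPM per kb, and without cell 2 that of Msln was 0.62.

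No cell held counts of all 9 genes. The number of the 9 genes with a count ranged from 2 in cell 8 (Tbx18 and Aldh1a1) to 7 in cell 4, with a median of 4.5. Over all genes a cell held counts for 46.1 to 55.0% of the table, which the median of 4.5 of 9 matches. A list of 9 genes is too short to set the extremes of 2 and 7 apart from that share. In cell 4, however, Wt1 and Msln rested on 3 counts and 1 count, and at 10 counts or more the highest number was 5 genes, in cells 2, 7, 9 and 12. Wt1 and Tcf21 were never found in the same cell, nor were Tcf21 and Msln. These 3 genes were counted in only 2, 2 and 4 of 12 cells, too few for a lack of shared cells to show exclusion. Tbx18 occurred together with Scx in 8 cells, with Aldh1a2 in 7 and with Upk1b in 7, which are all cells that held those genes, because Tbx18 was counted everywhere. Across the 12 cells, Spearman's rho between the 4 genes abundant enough to compare was -0.61 for Tbx18 and Upk1b, -0.56 for Aldh1a2 and Upk1b and 0.52 for Tbx18 and Aldh1a2, and without cell 10 it was -0.60, -0.49 and 0.48. Pearson's r of log2(CPM + 1) put these pairs in another order, at -0.50, -0.55 and 0.57. The pairs with Aldh1a1 depended more on cell 10. Aldh1a1 and Upk1b had a rho of 0.22 with that cell and 0.60 without it, while their Pearson's r over 12 cells was -0.09, and for Aldh1a1 and Aldh1a2 the values were -0.08 and -0.29. For Aldh1a1 and Tbx18 they were 0.05 and -0.09. All points come from the same protocol and group of libraries, and the coefficients describe them without a test.

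Other markers of mesothelium gave a sparser picture than the 9 genes, among which Aldh1a1 and Tbx18 were counted in all 12 cells. The mesothelial members Msln, Upk3b and Upk1b were themselves counted in only 4, 0 and 7 cells. Of 19 such genes, none was counted in all 12 cells and 9 had no count at all: the keratins Krt8 and Krt18, the epithelial cadherin Cdh1, the transcription factors Bnc1 and Gata5, and Gpm6a, Muc16, Rspo1 and Calb2. Among all genes of the table, 35.3% were counted in all 12 cells and 33.4% had no count. Over all cells 64 of 228 values were above 0 (28.1%, interval 22.3 to 34.4%). The 3 genes with the highest medians were Sema3d, a secreted guidance factor, at 7.05 CPM, Itga4, an integrin subunit that binds vascular cell adhesion molecule, at 5.26 CPM, and the claudin Cldn15 at 5.06 CPM. Krt19 was highest in cell 8 (32.0 CPM, next 5.45 CPM), and Krt7 was counted in cell 5 alone, at 5.77 CPM. The summed level of the list was lowest in cell 1, at 9.55 CPM, and highest in cell 2, at 126 CPM, the cell that also held the most Msln. Sema3d made up 84.4 CPM of that sum and Nkain4 35.6 CPM.

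Genes of epithelial-mesenchymal transition and of the mesenchymal state were in contrast nearly all present. All 15 had a count, 13 of them in every cell, and 172 of 180 values were above 0 (95.6%, interval 91.4 to 98.1%). Vim, an intermediate filament of mesenchymal cells, had a median of 6321 CPM, Fn1, which encodes fibronectin, 542 CPM, and Prrx1, a homeobox factor of limb and stromal mesenchyme, 222 CPM. The transcription factors Snai1 and Snai2, which repress epithelial cadherin, were counted in all 12 cells at medians of 42.5 and 23.5 CPM. Twist2 was the sparsest member, with counts in 5 cells.

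**Figure D3:**
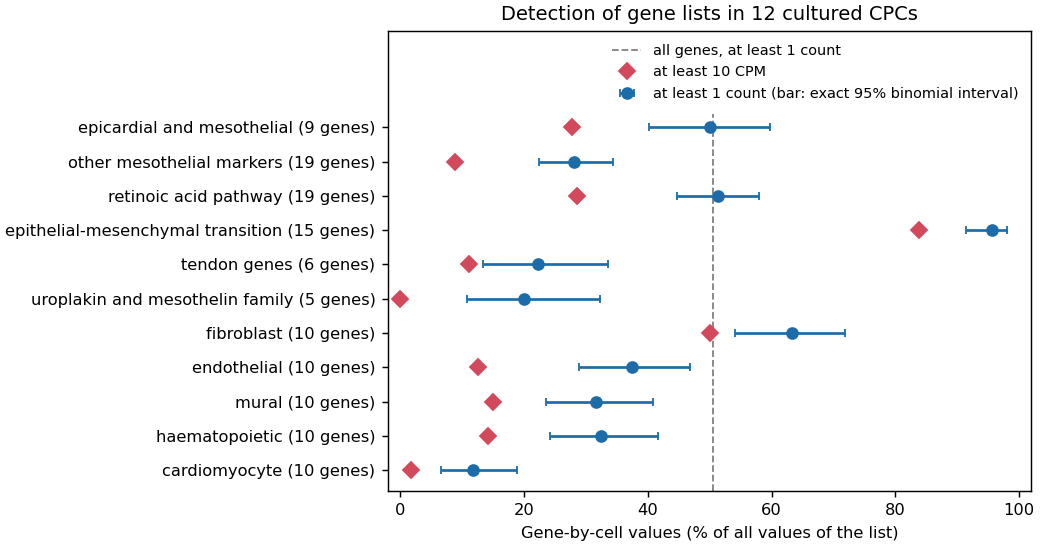
Share of gene-by-cell values with at least 1 count (circles, with exact 95% binomial intervals) and with at least 10 CPM (diamonds) for the 9 genes and 10 other lists, cell cycle genes left out. The dashed line marks all genes, at 50.5%. The 9 genes lie beside it at 50%, between the other mesothelial markers at 28.1% and the genes of epithelial-mesenchymal transition at 95.6%.

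Panels of other heart cell types were read on the same scale. Fibroblast markers had counts in 63.3% of values (54.1 to 71.9%), endothelial markers in 37.5% (28.8 to 46.8%), haematopoietic markers in 32.5% (24.2 to 41.7%), mural markers in 31.7% (23.5 to 40.8%) and cardiomyocyte markers in 11.7% (6.53 to 18.8%). Within the fibroblast panel, Col1a2 had a median of 690 CPM, while Dcn was counted in 3 cells and Lum in 1. Within the mural panel, Pdgfrb was counted in all 12 cells at a median of 26.1 CPM and Acta2 in 10 cells at a median of 19.2 CPM. Myh11, Rgs5 and Kcnj8 had at most 0.797 CPM in any cell. The part that such cell types have in the counts of Tbx18 or Tcf21 was not tested. Without cell 10 the endothelial share was 33.6% and that of the 9 genes 50.5%. Single cells also stood out in other panels: the haematopoietic sum was 1623 CPM in cell 3, of which Cd53 made up 1463 CPM, and the mural sum was 3737 CPM in cell 11, the cell with the lowest Tbx18 level, of which Acta2 made up 3668 CPM.

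The retinoic acid pathway was measured around the Aldh1a enzymes. Retinol is taken up by cells, oxidised to retinaldehyde by Rdh10 and alcohol dehydrogenases, and oxidised again to retinoic acid by the Aldh1a enzymes. Cyp26 enzymes degrade retinoic acid, and Rar receptors bind it and act on DNA as pairs with Rxr receptors. Of 19 pathway genes other than Aldh1a1 and Aldh1a2, 15 had a count and 5 had counts in every cell: Dhrs3, Rara, Rarg, Rxra and Rxrb. Of their values 51.3% were above 0, near the 50.5% over all genes. Dhrs3, which turns retinaldehyde back to retinol, had the highest median, at 38.0 CPM, ahead of the receptors Rara at 27.5 CPM and Rxrb at 23.3 CPM.

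The receptors counted in every cell had narrow ranges beside that of Aldh1a1. Rxra ran from 9.01 to 31.2 CPM, Rarg from 8.16 to 24.9 CPM and Rara from 16.3 to 81.5 CPM. Rxrg had no counts and Rarb was counted in 3 cells. Rdh10 had a median of 4.83 CPM and was counted in 11 cells. Of the degrading enzymes, Cyp26b1 was found in 10 cells, with its maximum of 20.5 CPM in cell 7, while Cyp26a1 and Cyp26c1 had no counts. Cell 7 also held the most Aldh1a1, but cell 11, the next for Aldh1a1, had 0 Cyp26b1 counts, and cell 2, also high in Aldh1a1, had 1. Stra6, the membrane receptor for retinol uptake, had no counts. Crabp1, a retinoic acid binding protein, reached 32.5 CPM in cell 8 and had a median of 2.15 CPM.

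Cell 10 was at the edge of the range for several pathway genes. Its low Aldh1a1 level was shared by cell 9, which also had 52 counts, and 4 other cells likewise had no Aldh1a2. It held the highest level of 5 pathway genes: Adh1, Adh7, Rdh10, Rara and Rarb. Dhrs3 and Rxra went the other way, with their lowest values in cell 10, at 3.19 and 9.01 CPM, and Cyp26b1 and Crabp1 had no count there. Adh7 was at 109 CPM there and at 47.2 CPM in cell 3, the next in order. For Rarb these values were 24.4 and 4.55 CPM. The summed level of the list was 299 CPM in cell 10, and the other 11 cells held 119 to 215 CPM. Of all 14462 genes with a count, 11.6% had their highest CPM in cell 10.

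**Figure D4:**
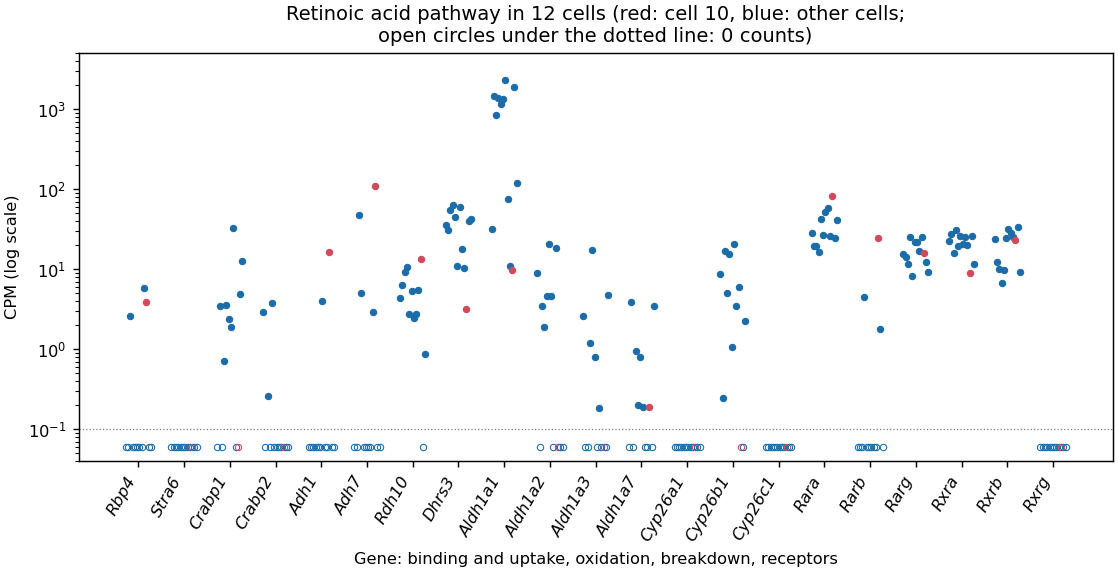
CPM (log scale) of 21 genes of the retinoic acid pathway, Aldh1a1 and Aldh1a2 included, with 1 point per cell, red for cell 10 and open circles for 0 counts. Aldh1a1 spans 9.76 to 2284 CPM, the receptors Rara, Rarg, Rxra and Rxrb are counted in every cell, and cell 10 tops Adh1, Adh7, Rdh10, Rara and Rarb.

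The genes whose pattern over the 12 cells was most like each of the abundant members were ranked by Spearman's rho of CPM. The ranking covered the 9640 other genes with counts in at least 6 cells and a mean of at least 5 CPM. For Aldh1a1 the first 3 were Anxa1, which encodes the phospholipid-binding annexin A1, with a rho of 0.93, Cemip, a gene needed for breakdown of hyaluronan, with 0.92, and Serpinb9, an inhibitor of granzyme B, with 0.90. Anxa1 was lowest in cell 10, at 842 CPM, and highest in cell 11, at 6917 CPM. Without cell 10 the same 3 genes came first, with rho of 0.91, 0.90 and 0.88.

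**Figure D5:**
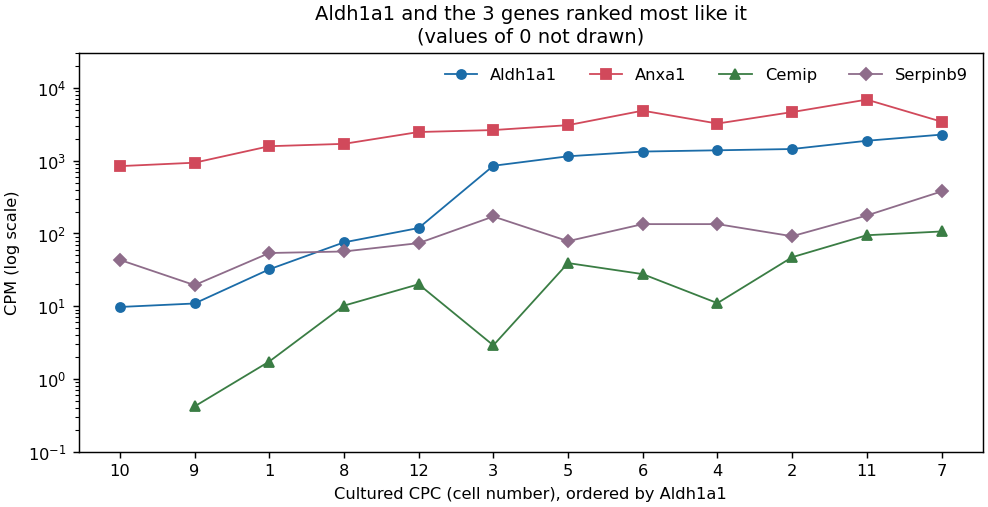
CPM (log scale) of Aldh1a1, Anxa1, Cemip and Serpinb9 in 12 cells ordered by their Aldh1a1 level, with values of 0 left out. Aldh1a1 steps up between cell 12 (119 CPM) and cell 3 (852 CPM), while Anxa1 lies between 842 and 6917 CPM, is higher in each of the 7 cells to the right of the step than in the 5 to its left, and rises and falls among those 7. Anxa1 was chosen for its likeness to Aldh1a1 in these same cells, so this separation follows in part from that choice.

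For Tbx18 the first 3 were Fcf1, which acts in ribosome biogenesis (rho of 0.90), Dclre1c, the DNA repair nuclease Artemis (0.86), and Fam179b (0.84). For Aldh1a2 they were Cby1 (0.89), Cdip1 (0.86) and Eva1c (0.86), and for Upk1b the linker histone gene Hist1h1c (0.89), Wdr47 (0.86) and the sugar transporter gene Slc50a1 (0.86). These places were not kept without cell 10, where the genes ranked 2, 9 and 7 for Tbx18, 2, 7 and 8 for Aldh1a2, and 2, 2 and 11 for Upk1b. No other cell was left out of this ranking, so the change is not shown to be particular to cell 10. None of these 12 genes belonged to the lists above. Coefficients of this size were common in these data: the best partner of a gene had a median rho of 0.92 over 9641 genes, and the fifth percentile was 0.86. Against cell measures, Aldh1a1 had a rho of -0.45 with the sum of 7 cell cycle genes and 0.50 with the fibroblast sum, and without cell 10 these values were -0.61 and 0.35.

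Detection of some members went along with the number of genes found in a cell. Cells 7, 8, 10, 11 and 12 had between 10022 and 10181 genes, and the other 7 cells had at least 11216. The split was made on the number of detected genes, so detection over all genes differs between its sides by construction. The share of all genes with a count ran from 46.1 to 55.0% per cell. Aldh1a2 was counted in 1 of these 5 cells and in 6 of the other 7, and Scx in 2 of 5 and 6 of 7. Msln was counted in 1 of 5 and 3 of 7. Upk1b went the other way, with 4 of 5 and 3 of 7. Wt1 and Tcf21 were each counted in 1 of 5 and 1 of 7. Tbx18 and Aldh1a1 had counts in every cell and Upk3b in none. For Aldh1a2, rho was 0.62 with the number of detected genes and -0.66 with the total count, by which CPM values are divided, and without cell 10 these values were 0.56 and -0.60. The part of library complexity in these patterns was not tested.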

How the data were processed

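Single-cell polyA libraries were made with Smart-Seq v4 and Nextera XT. The authors deposited whole-number counts of reads per gene symbol for 12 cells, and the submitters' processing notes name STAR 2.5.2b and mm10. The counting program, its annotation and its strand setting are not given in the sources used here, so overlapping genes may share or lose reads. Each of the 12 columns was matched to a sample by its title.

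Counts were scaled to CPM by each cell's own total. Levels of different genes were compared per kb of exon, as the union of GENCODE M21 exons, which matched 21354 of 21729 symbols. A gene was called detected at 1 count. Poisson and binomial intervals are exact at a level of 0.95. Binomial intervals over a list treat its values as independent, which values of 1 gene or 1 cell are not. Likeness was Spearman's rho of CPM among genes with counts in at least 6 cells and a mean of at least 5 CPM, and the 3 genes highest for each member were named. The rule for naming further genes took the 3 highest medians of a list, its genes with no count, any list gene with at least 10 CPM in a cell at over 10 times the next cell, genes that overlap a member or are its closest copy, and Kit. Lists of other cell types are given by their shares with a few of these genes, and other genes were named after their values were seen. The background given beside a count of members is the share of all 21729 genes that met the same criterion.

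The members and lists were chosen with earlier results of these data known. A gene of the retinoic acid list is not reported here. Since no label ties a cell to an animal or culture, the 12 cells are not replicates of a condition, and neither a test nor a p-value is given. Alternatives were other detection limits, scalings, thinning of every cell to the smallest total, and leaving out cells. The steps were tested on simulated data. Software was matplotlib 3.10.9, scipy 1.17.1, pandas 2.3.3 and numpy 2.4.6, under Python 3.11.15.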

Additional observations from a re-analysis of the deposited data

How the results depend on the processing

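Of 29 alternative values for the 5 summary results, 26 lay within the limits set for calling them unchanged and 3 moved. The limits were a ratio of 1.5 for the genes counted and the binomial interval for the share of values. They were 1 SD over cells for genes per cell and for the summed level (813 CPM, a wide limit). For rho they were the range of the leave-one-out values, which holds the value without cell 10, so that value could not move. The tally is thus no measure of stability. With a limit of 10 CPM in place of 1 count, 27.8% of values and a median of 2.5 genes per cell were detected, against 50% and 4.5. Pearson's r of log2(CPM + 1) for Tbx18 and Upk1b was -0.50, where Spearman's rho was -0.61. Leaving out 1 cell at a time gave 8 to 8 genes counted, 47.5 to 52.5% of values, a median of 4 to 5 genes per cell, a median summed level of 907 to 1186 CPM and a rho of -0.67 to -0.57. Without cell 10 the median summed level was 1186 CPM. Detection of Wt1 depended on cells 4 and 10, and that of Tcf21 on cells 9 and 12: leaving out either cell left 1 cell with a count. At 10 CPM, Wt1 was found in 0 cells, Tcf21 in 1, Scx in 1, Aldh1a2 in 2, Msln in 2 and Upk1b in 3. With 12 cells of 1 group, no difference between conditions could be measured, and low levels in single cells were limited by a floor of 0.527 to 0.869 CPM. No paired analysis was possible because the samples form 1 group.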
